A study of Mus musculus with 3 samples.

Results

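The RNA of 10 glycolytic enzymes was followed in apoptotic bodies (ABs), the membrane vesicles that dying cells shed, at 3 stages of the osteoclast lineage. The enzymes were Gpi1, Pfkl, Aldoa, Tpi1, Gapdh, Pgk1, Pgam1, Eno1, Pkm and Ldha, and their rows in the mRNA table were found by GENCODE M21 gene symbol. All 10 genes had rows, with 86 transcripts of the 56651 transcripts listed for 15843 genes. For each gene the reads summed over its transcripts (the gene total) were set against the share of those reads that each transcript held. The enzymes were put together with transcript values of Ldha and Pgk1 already known, so what follows describes these libraries and tests nothing.

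There was 1 library per AB: BMM-ABs, pOC-ABs, mOC-ABs. The parental cells were bone marrow macrophages (BMM), preosteoclasts (pOC) and mature osteoclasts (mOC), all cultured from the marrow of C57BL/6 mice aged 11 weeks, and no genetic change is named for any of them. BMM received M-CSF at 50 ng/ml for 72 h and no RANKL. For pOC and mOC, RANKL at 100 ng/ml was given with M-CSF at 30 ng/ml, for 24 h in the first case and for at least 72 h in the second. M-CSF keeps macrophage precursors alive and RANKL is the cytokine that drives them to become osteoclasts. Per the labels, 500 μM alendronate for 12 h induced the apoptosis of all 3 cultures, while the methods of the study name staurosporine and a longer RANKL treatment for mOC. The labels do not say how many animals a library came from. Wherever 3 values stand together without names, they run from BMM-ABs over pOC-ABs to mOC-ABs. With 1 library per AB there was no replicate spread to compare a difference with. The comparisons were pOC-ABs against BMM-ABs (G1), mOC-ABs against BMM-ABs (G2) and mOC-ABs against pOC-ABs (G3), and each library enters 2 of them.

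Glycolysis splits glucose into pyruvate in the cytosol and yields ATP without oxygen. Its later steps repay the ATP spent at the start, and lactate dehydrogenase turns pyruvate into lactate, which restores the NAD+ the pathway consumes. Osteoclasts are rich in mitochondria and also run glycolysis, including at the membrane that resorbs bone.

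The mRNA table held 7387317 to 9100082 reads per library. Gene totals are also given as RPM, the reads scaled to the total of that table, and 3 reads, the floor of detection used here, were 0.330 to 0.406 RPM. Intervals below cover counting error only, and the reads carry no molecular identifiers. The intervals leave out the spread between libraries and any error in assigning reads among transcripts that share bases. Of 10 osteoclast markers 9 were listed, and their summed level was 345, 581 and 1870 RPM. The 6 macrophage markers summed to 2555, 1396 and 1374 RPM. Itgb3, an osteoclast integrin, had 6, 3 and 0 reads. None of the 4 erythroid or 6 neutrophil markers was listed, and the listed B cell, T cell and stromal markers summed to under 1 RPM in each list. The part of this difference in markers in the results on the enzymes was not tested. A lower share of a cell type cannot be told apart from less RNA per cell.

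Gene totals of the enzymes differed little between the libraries. The 10 genes took 141574, 109508 and 124270 reads, or 1.56%, 1.48% and 1.61% of the mRNA reads. On the scale of FPKM summed per gene, which divides reads by transcript length, Pkm was highest on the listed rows at 2558, 2274 and 2603. Aldoa followed at 1984, 1957 and 1983 FPKM. Ldha had 907, 1130 and 1081 FPKM, and Pfkl was low at 120, 105 and 113 FPKM. The listed rows of Gapdh reached 85.3, 58.0 and 58.3 FPKM. Of the reads on listed rows that match Gapdh, most stood on copies of it, as given with its own values. The place of Gapdh in this order is therefore not known. The remaining 5 genes lay between 443 and 721 FPKM.

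**Figure D1:**
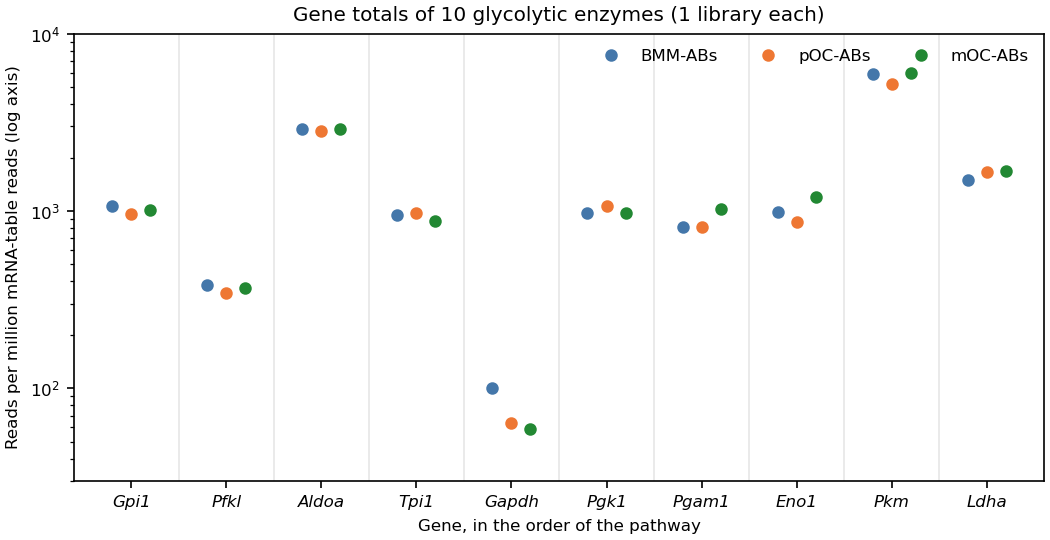
RPM (log axis), the reads scaled to the mRNA-table total and summed over the listed transcripts of each enzyme, in the order of the pathway, with 1 point per library and no error bars because there was 1 library per AB. In all but Gapdh the 3 points lie close together, and Pkm is highest at 5239 to 6021 RPM.

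None of the 9 enzymes with at least 2 listed transcripts passed a ratio of 2 in either direction in any comparison. Among 6874 genes with at least 2 listed transcripts and at least 100 reads in every library, 4.29% did so in G1, 5.66% in G2 and 3.16% in G3, and a count of 0 in 9 genes cannot be told apart from these shares. Over G1, G2 and G3 the median log2 ratios of the 9 enzymes were -0.15, 0.00 and 0.04, beside -0.05, -0.04 and -0.01 over the 6874 genes. Dividing by the reads of the mRNA and lncRNA tables together moved every gene by -0.20, -0.10 and 0.10 on the log2 scale, because lncRNA took 28.5%, 37.7% and 33.3% of the reads. On that scale the median of the enzymes was -0.35 in G1 and -0.10 in G2.

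The makeup of transcripts was compared by a share distance, the summed absolute differences between the transcript percentages of a gene divided by 2, which runs from 0 points for the same makeup to 100 points for no transcript in common. Of the 9 enzymes 1, Ldha, reached 50 points, and it did so in every comparison. The same limit was passed by 6.50% of the 6874 genes in G1, 6.62% in G2 and 6.79% in G3, so a count of 1 in 9 cannot be told apart from the background. The median distance of the enzymes was 5.44, 6.12 and 4.67 points in G1, G2 and G3, below the 9.32, 9.11 and 8.83 points of all genes. Of the genes past 50 points, 421 of 447 in G1, 415 of 455 in G2 and 440 of 467 in G3 had a total within 2-fold, which is 94.2%, 91.2% and 94.2%, beside 95.7%, 94.3% and 96.8% of all 6874 genes.

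**Figure D2:**
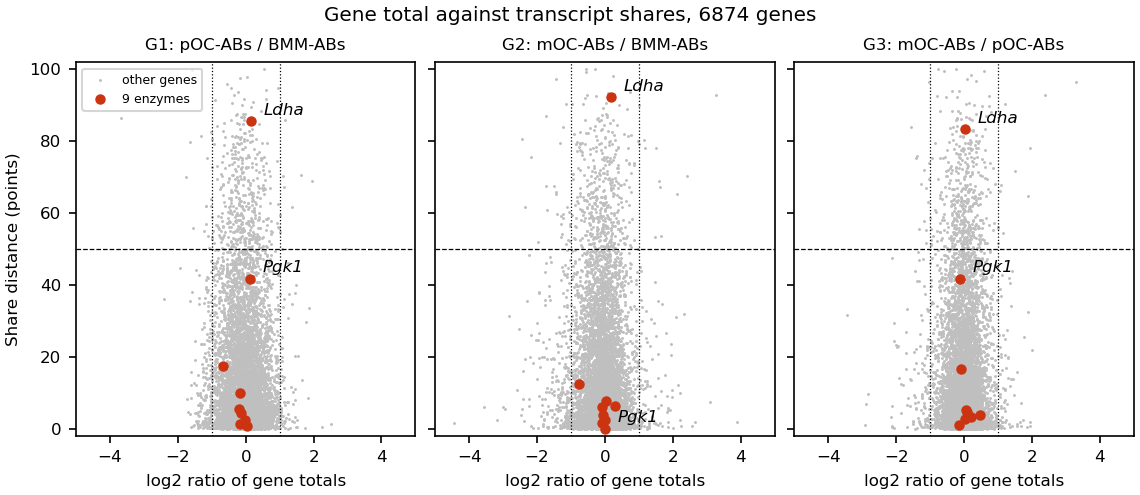
Share distance in points against the log2 ratio of gene totals for the 6874 genes (grey) and 9 enzymes (red), with 1 panel per comparison. The dashed line is 50 points and the dotted lines are a ratio of 2 in either direction. Ldha lies above 83 points in all 3 panels at a ratio near 1, and Pgk1 at 41.7 points in G1 and G3 and near 0 in G2.

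The lead transcript, the one with the most reads of its gene, differed in 1 of the 9 enzymes in each comparison, again Ldha. Over all genes it differed in 17.5% in G1, 17.1% in G2 and 16.9% in G3. Ldha had a different lead in each of the 3 libraries, as had 190 of the 6874 genes, or 2.76%. After transcripts with the same annotated coding sequence were pooled, Ldha remained the only enzyme past 50 points in every comparison, where 4.26%, 4.36% and 4.35% of all genes passed. Its distance then was 82.6, 89.4 and 83.3 points. Most of the change in Ldha therefore fell between transcripts with different annotated proteins. For BMM-ABs this rests on the annotation of Ldha-210, 1815 bases with 1083 coding. Ldha-201, 1766 bases with 996 coding, starts in the same exon and ends at the same base. The pooled distances in G1 and G2 thus depend on how reads were split between these 2 transcripts.

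**Figure D3:**
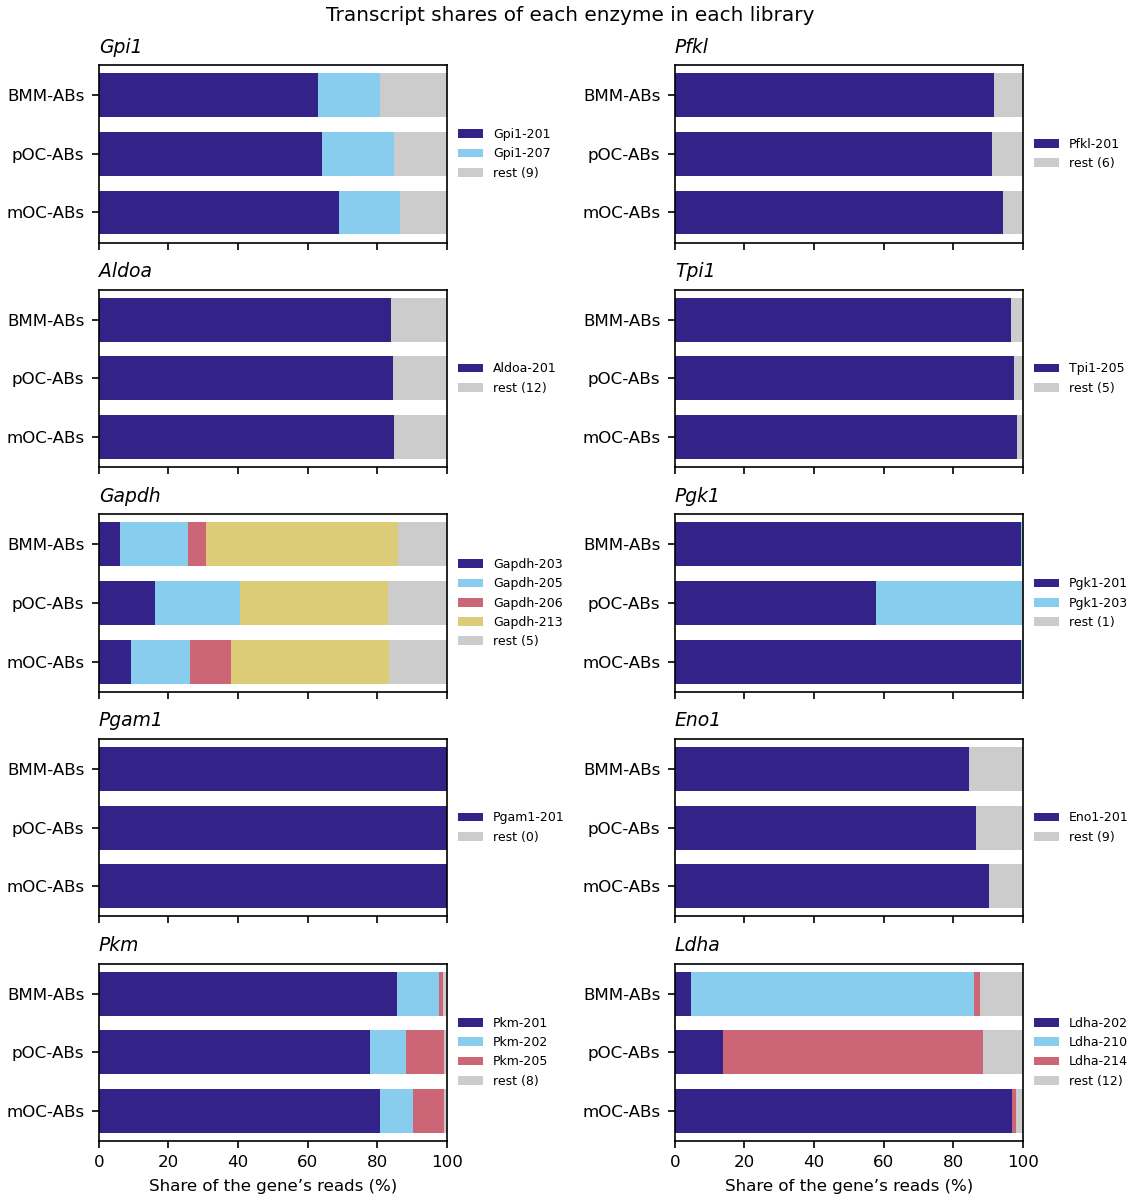
Share of each enzyme's reads (%) by transcript, with 1 bar per library. Transcripts with at least 10% of the reads in any library are coloured and the number of the others is in brackets. Gpi1, Pfkl, Aldoa, Tpi1 and Eno1 keep nearly the same bars, Pgk1 changes in pOC-ABs, and Ldha has a different main colour in every library.

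Gpi1, Pfkl, Aldoa and Tpi1 had totals within 2-fold and 1 lead transcript each in all 3 libraries. Gpi1, which interconverts glucose 6-phosphate and fructose 6-phosphate, lies on the minus strand at chr7:34201330-34230336 (GRCm38). Its total was 9745, 7130 and 7771 reads, or 1071, 965 and 1008 RPM. On the log2 scale pOC-ABs were at -0.15 relative to BMM-ABs (95% interval -0.19 to -0.11) and mOC-ABs at -0.09 (-0.13 to -0.04). The full coding transcript Gpi1-201 held 63.1%, 64.3% and 69.2% of these reads. Gpi1-207, annotated for nonsense-mediated decay (NMD, the pathway that destroys RNAs with an early stop codon), held 17.9%, 20.7% and 17.5%. All 933 bases of Gpi1-207 also lie in Gpi1-201, so it holds no base of its own. The other 9 transcripts of Gpi1 each stayed below 10% in every library.

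Pfkl, the liver-type subunit of phosphofructokinase, the committed step of glycolysis, had 3488, 2539 and 2815 reads. Its ratios were 0.897 (0.852 to 0.944), 0.953 and 1.06 over G1, G2 and G3. Pfkl-201 led with 91.8%, 91.3% and 94.5%. Aldoa, the aldolase that cleaves fructose 1,6-bisphosphate, was the most even of the abundant members, with 2887, 2835 and 2908 RPM. Aldoa-201 took 83.9%, 84.6% and 85.0% of its reads. The total includes 2 transcripts of a second gene with the same symbol, Aldoa-213 with 14, 9 and 0 reads and Aldoa-214 with 7, 4 and 2. The longer coding form Aldoa-202, which adds 162 coding bases and was named after its values were seen, had 1265, 592 and 1056 reads, so its ratio was 0.576 in G1 (0.522 to 0.636) beside 0.990 for Aldoa-201. Tpi1, the triosephosphate isomerase, had 943, 977 and 883 RPM and Tpi1-205 held 96.8%, 97.5% and 98.4% of them. Its share distance was the smallest of the 9 in G1, at 0.706 points. Since no strand setting is stated, reads in the 34 bases where Tpi1 overlaps Spsb2 on the other strand, and in the 68 where Gapdh overlaps Iffo1, could belong to either gene.

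Gapdh oxidises glyceraldehyde 3-phosphate and is a common reference gene. Its listed rows held 915, 470 and 456 reads, far below its neighbours in the pathway. The log2 ratio was -0.66 in G1 (-0.82 to -0.50) and -0.76 in G2 (-0.93 to -0.60), the lowest of the 10 enzymes, but it was 0.29 in G1 and 0.05 in G2 once the reads of near-identical copies were added. Of 13 annotated transcripts 9 had rows, and Gapdh-201, Gapdh-208, Gapdh-210 and Gapdh-212 were not analysed here. The reads were mostly on transcripts with retained introns. Gapdh-213, a run of 3289 bases without a splice, had 504, 200 and 207 reads, and Gapdh-205 had 178, 114 and 77. Gapdh-206 had 48, 1 and 54 reads. The coding transcript Gapdh-203 had only 56, 76 and 42 reads, so with protein-coding transcripts alone the log2 ratio in G1 was 0.08.

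Far more reads stood on copies of Gapdh than on its own listed rows. Processed pseudogenes are copies of spliced mRNAs that were written back into the genome, and glycolytic genes have many. Listed transcripts of other genes were compared with the coding sequence of each enzyme, and those with at least 90% identity over at least 80% of its length were counted as near copies, a limit chosen after the data were seen. For Gapdh, 103 such copies held 55348, 55234 and 48980 reads. This was 98.4%, 99.2% and 99.1% of the reads on the listed rows of gene and copies together. The Gapdh transcripts not analysed here are missing from these shares, so the share over all its transcripts is not known. The 24 copies with at least 99% identity alone held 54069, 54179 and 47914 reads. Reads that fit a gene and its copy equally well can be counted on either, and whether a read was counted more than 1 time is not given in the sources used here.

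Eno1 and Pgk1 were next. For Eno1, 4 copies held 72.2%, 75.6% and 72.3% of the reads. The largest was the processed pseudogene Gm4735 on chromosome 2, 99.6% identical, with 12965, 10865 and 13333 reads, followed by Eno1b with 9047, 7900 and 9445. For Pgk1, Pgk1-rs7 on chromosome 12 had 6248, 5980 and 5087 reads and matched the coding sequence at 100% identity, so that copies took 41.5%, 43.2% and 40.5%. For Pgam1 the shares on copies were 17.1%, 18.0% and 18.3%, nearly all on Pgam1-ps2, and for Pkm 7.997%, 8.21% and 8.05%, nearly all on Gm6560. Copies of Ldha held 1.54%, 1.51% and 1.64% and those of Aldoa 0.530%, 0.433% and 0.740%. No listed copy of Gpi1, Pfkl or Tpi1 passed the limits. With copies added no enzyme passed a ratio of 2 in any comparison.

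**Figure D4:**
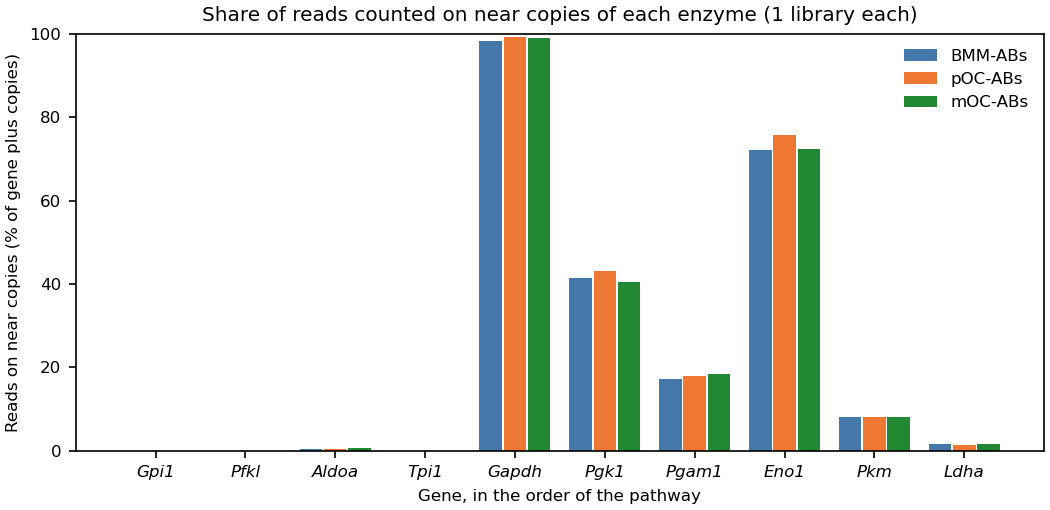
Reads on listed near copies as a percent of the reads on the listed rows of each enzyme and its copies. There is 1 bar per library and no error bars because there was 1 library per AB. Gapdh transcripts not analysed here are left out. Gapdh stands at 98.4% to 99.2%, Eno1 at 72.2% to 75.6% and Pgk1 at 40.5% to 43.2%, while Gpi1, Pfkl and Tpi1 have none.

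Pgk1 makes the first ATP of the pathway from 1,3-bisphosphoglycerate and lies on the plus strand at chrX:106187100-106203699. Its gene total was 972, 1066 and 974 RPM, and the log2 ratio against BMM-ABs was 0.13 for pOC-ABs (0.09 to 0.18) and 0.00 for mOC-ABs (-0.04 to 0.05). With protein-coding transcripts alone the former was -0.65. The transcripts beneath this even total differed. The coding transcript Pgk1-201 had 8811, 4561 and 7479 reads, or 99.6%, 57.9% and 99.6% of the gene. Its level in pOC-ABs was 0.638 times that in BMM-ABs (0.615 to 0.661), while mOC-ABs stood at 1.002 times (0.972 to 1.03). The remainder in pOC-ABs was Pgk1-203, which held 41.8% there (Wilson interval 40.8% to 42.9%) and 0.102% and 0.107% in BMM-ABs and mOC-ABs. It was 451-fold higher in pOC-ABs than in BMM-ABs (237 to 987), a wide interval since BMM-ABs held 9 such reads. The shares leave out the reads on copies of Pgk1, which were 5993 in pOC-ABs. Reads of Pgk1-201 that fit a copy equally well could be counted there, so the share of Pgk1-203 depends on how they were assigned. A distance as large as that of Pgk1 in G1 was exceeded by 702 genes of the background, or 10.2%.

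Pgk1-203 uses an earlier splice site in front of exon 8 and so gains 40 bases. The added bases are read in the frame of exon 7 and hold the stop codon TGA after 3 codons. This leaves a coding sequence of 765 in place of 1251 bases. The junction is shown because the added bases are the only ones that Pgk1-203 does not share with Pgk1-201, with the end of exon 7 in lower case and the added bases up to the stop in capitals (GRCm38, plus strand, within chrX:106199744-106200128).
Pgk1-203 exon 7 to exon 8: gtgctcaacaacatggagTATAGGGGCTGA
Both transcripts share 1724 bases, 97.7% of Pgk1-203.

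Pgam1 moves the phosphate of 3-phosphoglycerate to carbon 2. Its only listed transcript, Pgam1-201, had 7422, 5994 and 7856 reads, so no share could change. On the log2 scale the gene total was at -0.01 (-0.06 to 0.04), 0.32 (0.28 to 0.37) and 0.33 (0.28 to 0.38) over G1, G2 and G3. The mOC-ABs were thus above both other libraries by 1.25 and 1.26 times.

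Eno1, alpha-enolase, which forms phosphoenolpyruvate, likewise stood highest in mOC-ABs, with 988, 870 and 1205 RPM. Its log2 ratios over G1, G2 and G3 were -0.18 (-0.23 to -0.14), 0.29 (0.24 to 0.33) and 0.47 (0.42 to 0.52), and the first and last became 0.01 and 0.28 with the copies added. The lead in all 3 libraries was Eno1-201, with 7598, 5563 and 8386 reads, or 84.5%, 86.6% and 90.3%. This is not the transcript with the full reading frame. Eno1-202, with 12 exons and 1302 coding bases, had only 187, 319 and 229 reads and was named after its values were seen. Eno1-201 starts 6534 bases further downstream, lacks the first 4 exons and is annotated with 1098 coding bases, of which the first 36 are intron in Eno1-202. They are shown in capitals, ahead of the exon that both transcripts share (chr4:150243969-150244028, GRCm38, plus strand).
Eno1-201 first coding bases: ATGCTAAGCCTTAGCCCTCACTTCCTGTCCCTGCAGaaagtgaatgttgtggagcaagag
The near copies above match the full coding sequence of Eno1-202 over their whole length, including 240 coding bases that Eno1-201 lacks.

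Pkm, pyruvate kinase, makes pyruvate and the last ATP of the pathway. It lies on the plus strand at chr9:59656368-59679375 and had 53741, 38702 and 46396 reads, exceeded by only 4 or 5 genes of the table in each library. The log2 ratios of the total over G1, G2 and G3 were -0.17 (-0.19 to -0.15), 0.03 (0.01 to 0.05) and 0.20 (0.18 to 0.22). Mouse Pkm splices in either of a pair of alternative exons, M1, known from muscle and brain, or M2, known from growing cells and macrophages. Each exon has 167 bases and they differ at 64 positions, which are in capitals below, so they are 61.7% identical (GRCm38, plus strand, M1 at chr9:59675029-59675195 and M2 at chr9:59675568-59675734).
Pkm M1 exon: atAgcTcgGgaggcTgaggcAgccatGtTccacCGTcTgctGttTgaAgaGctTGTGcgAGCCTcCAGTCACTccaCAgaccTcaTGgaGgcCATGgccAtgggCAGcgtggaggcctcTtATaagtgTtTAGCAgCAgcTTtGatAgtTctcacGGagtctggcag
Pkm M2 exon: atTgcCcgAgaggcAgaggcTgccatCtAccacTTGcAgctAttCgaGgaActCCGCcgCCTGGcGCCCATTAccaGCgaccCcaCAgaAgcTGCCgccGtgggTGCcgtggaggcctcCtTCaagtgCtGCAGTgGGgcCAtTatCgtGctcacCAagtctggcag

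The M2 form led in every library. Pkm-201, which holds the M2 exon, had 46100, 30117 and 37471 reads, or 85.8%, 77.8% and 80.8% of the gene. Pkm-202, the M1 form with a coding sequence of the same length, had 6399, 4019 and 4455 reads. Of all reads on transcripts with either exon, M1 transcripts held 12.7% (Wilson interval 12.4% to 13.0%), 11.9% (11.6% to 12.3%) and 11.1% (10.8% to 11.4%) across the stages. The M1 transcripts were Pkm-202 and Pkm-203, a retained intron without a coding sequence that had 296, 62 and 201 reads. With Pkm-203 included the intervals of the M1 share do not overlap, and none were computed for Pkm-202 against Pkm-201 alone. The intervals cover counting error only, and whether steps of this size exceed the spread between libraries cannot be seen without replicates. On FPKM the M1 shares, again with Pkm-203 included, were 15.7%, 14.2% and 13.7%, in the same order.

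The larger change in Pkm was in a transcript with neither exon. Pkm-205 runs from exon 8 into the next intron, of which it holds 886 bases, and it is annotated as a retained intron without a coding sequence. It had 606, 4279 and 4095 reads, a share of 1.13%, 11.1% and 8.83%. Its RPM was 8.70 times the BMM-ABs level in pOC-ABs (7.99 to 9.49) and 7.98 times that level in mOC-ABs (7.33 to 8.71). The boundary is shown with the retained intron in capitals (chr9:59672059-59672088, GRCm38, plus strand).
Pkm-205 exon 8 into the intron: cgcatgcagcacctgGTAAGTCCTCCAAGC
The share distance of Pkm stayed at 10.02, 7.70 and 3.22 points in G1, G2 and G3, above the median gene in G1 and below it in G2 and G3. The lncRNA table held a further row at this place, Gm49759, a single-exon transcript on the plus strand at chr9:59672814-59676700 that spans both alternative exons. It had 1089, 388 and 452 reads, with a ratio of 0.382 in G1 and 0.457 in G2. It was lower in the later ABs than in BMM-ABs, where Pkm-205 was higher.

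Ldha, the A subunit of lactate dehydrogenase, turns pyruvate into lactate. It lies on the plus strand at chr7:46841475-46855627 and had the most listed transcripts of the enzymes, 15. The log2 ratios of its total over G1, G2 and G3 were 0.15 (0.11 to 0.18), 0.17 (0.14 to 0.21) and 0.03 (-0.01 to 0.06). In contrast, the share distances were 85.5, 92.3 and 83.3 points, which 31, 11 and 43 of the 6874 genes exceeded. The distances come from 3 transcripts that took turns: Ldha-202, Ldha-210 and Ldha-214 held 87.7%, 88.7% and 98.1% of the reads between them.

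Ldha-210 led in BMM-ABs with 81.5% of the reads (80.8% to 82.1%) and stood at 0.0819% in pOC-ABs and 0.0540% in mOC-ABs. Ldha-214 led in pOC-ABs, where it had 9150 reads, or 74.9% (74.1% to 75.7%). In the other ABs it had 213 and 143 reads, so it was 52.9-fold higher in pOC-ABs than in BMM-ABs (46.2 to 60.9) and 66.7-fold higher than in mOC-ABs. Ldha-202, the transcript with the standard coding sequence of 996 bases, led in mOC-ABs with 12565 reads, or 96.9% (96.6% to 97.2%). It had 626 reads in BMM-ABs and 1671 in pOC-ABs, and stood 23.7-fold higher in mOC-ABs than in BMM-ABs (21.9 to 25.7). No library held a mixture of the 3 in which the second reached 15%.

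The 3 transcripts differ at the 5′ side of the gene, apart from 1 base at the other end. Ldha-210 begins in an alternative first exon, 1243 bases downstream of the start of Ldha-202, and its annotated reading frame opens there. It carries 87 coding bases, 29 codons, ahead of the start codon of Ldha-202, of which 63 are the alternative exon and 24 lie in exon 2. Ldha-214 starts with Ldha-202 but lacks the first 51 bases of exon 3, which are 17 codons and keep the frame. Both stretches are shown because the annotated coding sequences of Ldha-210 and Ldha-214 differ there from that of Ldha-202. Ldha-201 also starts in the alternative exon, and Ldha-214 holds no base that Ldha-202 lacks, so these bases alone do not set the counts. The alternative exon and the lacking bases are in capitals (GRCm38, plus strand, Ldha-210 within chr7:46847326-46847619 and exon 3 at chr7:46848973-46849090).
Ldha-210 upstream coding bases: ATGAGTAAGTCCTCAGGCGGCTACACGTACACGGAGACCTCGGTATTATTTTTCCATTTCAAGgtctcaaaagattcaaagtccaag
Ldha exon 3: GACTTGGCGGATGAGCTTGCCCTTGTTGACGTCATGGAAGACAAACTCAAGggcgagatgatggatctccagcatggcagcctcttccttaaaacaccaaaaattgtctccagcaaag
Ldha-210 shares 1508 of its 1815 bases with Ldha-202, and all 1535 bases of Ldha-214 lie within the 1588 of Ldha-202.

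The reads were also grouped by where a transcript starts, a grouping made after the values were seen. Ldha-210 and Ldha-201 start in the alternative first exon, and together they had 11464, 10 and 7 reads, or 84.4%, 0.0819% and 0.0540% of the gene. Ldha-201 on its own, with the standard coding sequence, had 399, 0 and 0 reads, and a count of 0 allows up to 3 reads. The 8 transcripts that start in the upstream first exon held 14.9%, 98.6% and 99.5%. Thus BMM-ABs were apart from both osteoclast-lineage ABs in the first exon, while pOC-ABs and mOC-ABs shared it and were apart at exon 3.

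A further Ldha transcript, Ldha-209, named after its values were seen, skips exon 6 of 118 bases and is annotated for NMD. It had 851, 925 and 71 reads, 6.27%, 7.57% and 0.548% of the gene. Its level in mOC-ABs was 10.1-fold below BMM-ABs and 13.6-fold below pOC-ABs. Between BMM-ABs and pOC-ABs its ratio was 1.34 (1.22 to 1.47).

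**Figure D5:**
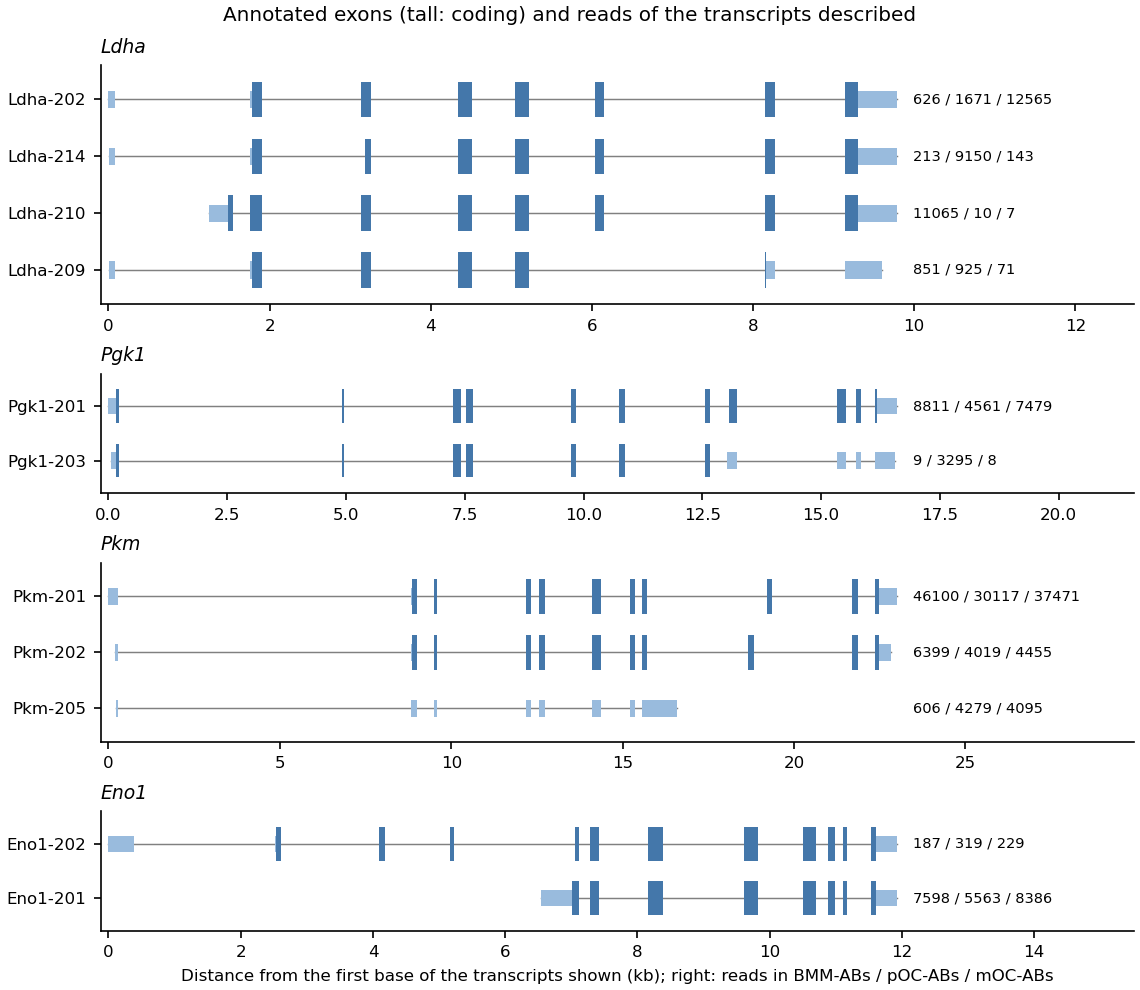
Annotated exons of the Ldha, Pgk1, Pkm and Eno1 transcripts described, as distance in kb from the first base of the transcripts shown for each gene, with coding parts tall and dark and the reads in each library at the right. The Ldha transcripts with the most reads in each library differ in the first exon and in exon 3, and Eno1-201, with 7598, 5563 and 8386 reads, lacks the first 4 exons of Eno1-202.

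A separate readout at this gene was the circRNA table, which counts reads across back-splice junctions, the joins that close a circle. Of 1372 circRNAs from 999 host genes, 1 came from an enzyme, and that enzyme was Ldha. The circle joins exon 5 back to exon 4 (chr7:46850178-46851058, plus strand, 348 spliced bases), both of which Ldha-202, Ldha-210 and Ldha-214 hold. It had 33, 15 and 0 junction reads, of 3413, 2380 and 4014 junction reads in all. Levels were taken relative to all junction reads of the library. With the floor of 3 reads in place of 0, mOC-ABs were 12.9-fold lower than BMM-ABs and 8.43-fold lower than pOC-ABs. These folds take the 33 and 15 reads as exact. The log2 intervals, which include their counting error, ended at -3.31 in G2 and -2.60 in G3. On the same scale the log2 ratio in G1 was -0.62 (-1.60 to 0.30), an interval that holds 0. Its junction is shown with the first bases of exon 4 in capitals.
Ldha back-splice junction: atggcgactccagtgACTACTGTGTAACTG
The linear total of Ldha over the same libraries was 1492, 1653 and 1683 RPM.

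Windows of 250 bases before and 50 after each RefSeq start site (GRCm38.p6) were searched for ACGTG or its reverse CACGT, the core that hypoxia-inducible factors bind and part of the E-box CACGTG. The letters stood in 7 of 16 windows of the enzymes and in 6 of the 10 genes, Aldoa, Gapdh, Ldha, Pgam1, Pgk1 and Pkm. They stood in 19.6% of 32851 windows of all genes and in 21.8% of genes. A match is a run of letters and not a measured binding site. Ldha has a window at each of its first exons, and both are shown for their 250 bases ahead of the start site with the matches in capitals (plus strand, chr7:46845554-46845803 upstream and chr7:46846832-46847081 ahead of the alternative exon).
Ldha upstream promoter: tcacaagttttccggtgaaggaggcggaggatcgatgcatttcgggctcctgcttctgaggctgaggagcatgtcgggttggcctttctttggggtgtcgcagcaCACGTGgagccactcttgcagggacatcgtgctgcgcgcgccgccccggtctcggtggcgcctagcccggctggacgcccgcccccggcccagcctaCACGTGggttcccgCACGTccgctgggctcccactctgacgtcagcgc
Ldha promoter of the alternative exon: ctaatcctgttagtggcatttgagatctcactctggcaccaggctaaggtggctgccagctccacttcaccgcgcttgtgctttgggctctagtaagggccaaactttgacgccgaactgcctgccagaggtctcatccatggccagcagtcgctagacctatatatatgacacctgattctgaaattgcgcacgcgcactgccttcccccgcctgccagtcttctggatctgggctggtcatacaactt
The upstream window held 5 matches, counting both strands of each CACGTG, and the window of the alternative exon held 0. The first lies ahead of the transcripts that led in pOC-ABs and mOC-ABs and the second ahead of the one that led in BMM-ABs. In BMM-ABs 14.9% of the Ldha reads also stood on transcripts from the upstream first exon. Whether the matches bear on which transcript led was not tested.

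By annotated type, a larger share of the 10 enzymes' reads stood on NMD and retained-intron transcripts in pOC-ABs than in the other ABs. NMD transcripts held 1.87%, 5.22% and 1.17% of their reads, and 3295 of the 5718 such reads in pOC-ABs were Pgk1-203. Over the whole table NMD transcripts held 2.14%, 1.78% and 1.91%. Retained introns held 4.79%, 7.48% and 6.30% of the enzymes' reads, against 5.23%, 4.21% and 3.85% over the table, and Pkm-205 was 606, 4279 and 4095 of the 6781, 8189 and 7824 such reads. Protein-coding transcripts held 93.3%, 87.2% and 92.5% of the enzymes' reads, against 81.2%, 77.7% and 80.5% over the table, which was also lowest in pOC-ABs.

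Of 29 other genes of the pathway and its supply 21 were listed, and 18 of them were in the background. In G1, 3 were below a ratio of 0.5 and none above 2, beside the 4.29% of all genes in either direction. They were transporters: the glucose transporters Slc2a1 and Slc2a3 and the lactate exporter Slc16a3. Slc2a1 had 323, 117 and 176 RPM, a ratio of 0.361 in G1 and 0.546 in G2. Slc16a3 had 274, 97.1 and 139 RPM, with ratios of 0.355 and 0.509. Slc2a3 was lower overall at 35.8, 17.5 and 24.9. In G2 and G3 the muscle enolase Eno3 alone passed 2, with 32.2, 43.9 and 161 RPM and ratios of 4.99 and 3.66. A count of 1 in 18 cannot be told apart from the 5.66% in G2 and 3.16% in G3 of all genes in either direction. The median log2 ratio of the 18 genes was -0.01, 0.10 and 0.14.

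Other enzymes and regulators of the early steps stayed within 2-fold in the background. The hexokinases, which trap glucose in the cell, had ratios in G1 of 0.722 for Hk1, 0.846 for Hk2 and 1.01 for Hk3. In G2 they were 0.655, 0.831 and 0.795. Pfkp, the platelet-type phosphofructokinase, was at 0.999 and 0.748, and Pfkfb3, which makes the activator of phosphofructokinase, at 1.44 and 1.08. Transcript makeup passed 50 points in Slc2a3 (63.9 points in G1 and 61.6 in G2), Hk3 (83.1 in G2 and 88.3 in G3) and Pfkfb4 (71.5 in G2). These were 1, 3 and 1 of the 18 genes over G1, G2 and G3, beside 6.50%, 6.62% and 6.79% of all genes. Slc2a3 overlaps the pseudogene Gm4482 on the same strand over 742 bases, so reads there cannot be told apart. The lead of Hk3 was Hk3-202 in BMM-ABs and pOC-ABs and Hk3-203 in mOC-ABs. Pfkfb1, with 47, 18 and 24 reads, was below the read minimum and had a ratio of 0.472 in G1. Ldhb, the other main subunit of lactate dehydrogenase, was not analysed here.

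The genes most like Ldha in this pattern were sought among 104 genes with at least 5000 reads in each library and no ratio of totals past 1.5. Ranked by the mean share distance over the 3 comparisons, the first 5 that were not enzymes were Eif5a at 62.3 points, Capg at 56.6, Acly at 49.4, Rps2-ps10 at 32.5 and Huwe1 at 26.2. Ldha had 87.0 points by the same measure and Pgk1 27.8. Capg changed in mOC-ABs, with 4.78 points in G1 and 83.0 in G3, and Acly in BMM-ABs, with 73.6 points in G1 and 5.05 in G3. Eif5a, like Ldha, differed in all 3 comparisons, with 35.0, 77.6 and 74.3 points.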

How the data were processed

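RNA of ABs was sequenced at the 3 stages, with 1 library per stage, and per the study's methods the RNA was purified on poly-T beads and no strand setting is stated. The authors deposited read counts and FPKM per transcript for mRNAs and lncRNAs, and junction read counts per circRNA with SRPBM, the authors' scaling of them to mapped reads (an RPM-like value, not used). The submitters' processing notes name FastQC, HISAT2, StringTie and GRCm38, and how reads that fit several transcripts were assigned is not given in the sources used here. The deposited FPKM matched the counts, transcript lengths and mRNA-table totals, within 10% for 98.5% to 98.6% of values.

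The columns 0h, 24h and 72h were taken as BMM-ABs, pOC-ABs and mOC-ABs by the RANKL times of the labels. Transcripts were joined to GENCODE M21 by identifier, which 229 of 56651 did not match. Counts were summed per gene and divided by the total of the mRNA table (RPM). Ratios carry exact (Clopper-Pearson) 95% binomial intervals and shares Wilson intervals, both for counting error only. No test was made, since each group had 1 library. Genes of the background had at least 2 listed transcripts and at least 100 reads in each library. Transcripts were named at 10% or more of their gene's reads in any library, and other pathway genes when past a ratio of 2, at 50 points, or on a short fixed list (Hk1, Hk2, Hk3, Slc2a1, Slc16a3, Ldhb, Eno3, Pfkp and Pfkfb3). The enzymes, lists and limits were chosen with earlier results of these data known. Near copies were found with BLAST+ 2.17.0, and the computations used Python 3.11.15, pandas 2.3.3 and scipy 1.17.1. Procedures were tested on simulated data. The alternatives tried were other scalings, FPKM, other limits, protein-coding transcripts only and added copies.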

Additional observations from a re-analysis of the deposited data

How the results depend on the processing

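No enzyme total passed a ratio of 2 under any scaling, on FPKM, with a pseudocount of 1 RPM, with coding transcripts only or with copies added. At a limit of 1.5, 1 enzyme was past it in G1 and 1 in G2, Gapdh in both. With the reads of both tables as the total, the median log2 ratio was -0.35 in G1 and -0.10 in G2. A call at 25 points gave 2 enzymes in G1 and 2 in G3, Ldha and Pgk1. With protein-coding transcripts only, the median share distance fell to 1.10 points in G2 and 1.36 in G3, and with transcripts that have a coding sequence only, the pooled distance in G2 was 0.945 points. Taking protein-coding transcripts only also moved the log2 ratio of Pgk1 in G1 from 0.13 to -0.65. M1 shares of Pkm on FPKM were 15.7%, 14.2% and 13.7%. The M1 transcripts are the shorter ones. Ldha stayed past 50 points in every comparison under each alternative tried for the shares. Adding only retrocopies by name changed no count past a limit. No paired analysis was possible because each group had 1 library and the labels give no replicate numbers. Read depth limits transcripts with few reads, such as Ldha-210 outside BMM-ABs, and the circRNA of Ldha, while the lack of replicates limits every comparison.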

Other observations

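The lncRNA table held rows at 2 further enzyme symbols. A row at Pfkl had 28, 6 and 3 reads, in the order of RANKL exposure. A row at Aldoa-213 and Aldoa-214, which belong to the second gene of the Aldoa symbol, had 14, 18 and 15 reads. The first was 0.230 times the BMM-ABs level in pOC-ABs (log2 interval -3.68 to -0.82), where Pfkl itself was at 0.897.

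Hif1a, the hypoxia-inducible factor whose targets include several of the enzymes, had 100.2, 158 and 147 RPM, a ratio of 1.58 in G1 (log2 interval 0.53 to 0.79) and 1.46 in G2. Pdk1, the kinase that keeps pyruvate out of the mitochondria, was at 0.993 and 1.07, and its share distance was 45.3 points in G1 and 45.1 in G2 with the same lead in every library. Pdha1, a subunit of pyruvate dehydrogenase, was at 1.24 and 1.28.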
